A study of Mus musculus with 6 samples.

Results

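A set of 10 genes that hold cells in an epithelial or a mesenchymal state were followed in mammary tumor cells: Zeb1, Zeb2, Snai1, Snai2, Twist1 and Twist2 on the mesenchymal side, and Esrp1, Esrp2, Grhl2 and Ovol1 on the epithelial side. They were chosen by name, and 8 of the 10 stood among the 10995 rows of the deposited count table, namely 5 of 6 mesenchymal and 3 of 4 epithelial regulators. Twist2 and Ovol1 were not listed there, so their levels were not analysed here and only their annotated sequence was used. Rows with low counts had been removed by an unstated rule, and every row reached at least 133 counts in some library. The tumor cells came from FVB/NJ mice that carried the MMTV-PyVT transgene in both groups, with the polyoma middle T antigen under a viral promoter active in mammary epithelium. One group of 3 libraries was labelled Nr4a1-/- and the other group of 3 was labelled wild type, and the mice were described as age matched, with no age given. The labels do not state whether each library was a separate animal, so the p-values reflect spread among libraries that may be technical. How the tumor cells were separated from stroma is not stated either.

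A switch from epithelial to mesenchymal character is driven by a small set of transcription factors. Zeb1 and Zeb2 are zinc finger and homeodomain proteins, Snai1 and Snai2 are zinc finger proteins, and all of them bind E-box sequences and repress E-cadherin and other junction genes. Twist1 is a basic helix-loop-helix factor that binds E-boxes together with E proteins. On the opposite side, Grhl2 activates junction genes and represses Zeb1, and Esrp1 and Esrp2 are RNA-binding proteins that set the epithelial pattern of alternative splicing. In mammary tumors the mesenchymal factors are known from invasive cancer cells, and also from the fibroblasts and, for Zeb2, the macrophages of the stroma.

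Total counts ranged from 19569173 to 24188875 per library. Library wild type 1 stood apart on the first principal component of log2 CPM, which carried 60.1% of the variance, at 51.3 against -28.8 to 2.22 for the other 5 libraries. Knockout replicate 2 was at -28.8, the other end. The transcript of Nr4a1 itself was not lower with the knockout label: it had 25.1, 35.5 and 37.6 CPM (read counts relative to TMM-scaled depth) in the libraries labelled knockout, against 34.5, 18.6 and 16.8 CPM in those labelled wild type. Its difference of 0.49 on the log2 scale did not pass (SE 0.32, edgeR adjusted p = 0.594), and it was 0.88 with wild type replicate 1 left out and 0.31 with wild type replicate 3 left out. Counts of a whole gene cannot show where in the allele the reads fell, so directions below compare the libraries by their labels.

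The 5 mesenchymal regulators stood higher on average, and the 3 epithelial regulators lower, in the libraries labelled knockout, and none of the 8 passed the test. In RNA of whole samples, fewer cells of a type and less RNA per cell cannot be told apart. The edgeR quasi-likelihood test with Benjamini-Hochberg adjustment at 0.05 called 0 of the 8, with adjusted p between 0.574 and 0.611, and it called 0% of all 10995 genes. At an unadjusted p under 0.05 it gave 1 regulator higher, Zeb2, where 3.7% of all genes were given, and 1 lower, Esrp2, where 4.17% were. With wild type replicate 1 or knockout replicate 2 left out, 0 of the 8 had such a p. DESeq2 called 0 of the 8 in either direction, where it called 0.582% of all genes higher and 0.355% lower, and its smallest adjusted p among the 8 was 0.267, for Zeb2. The groups did not overlap for 1 regulator that was higher, again Zeb2, where 8.39% of all genes stood so, and for 0 that were lower, where 9.05% did. The median log2 fold change over all genes was -0.002.

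**Figure D1:**
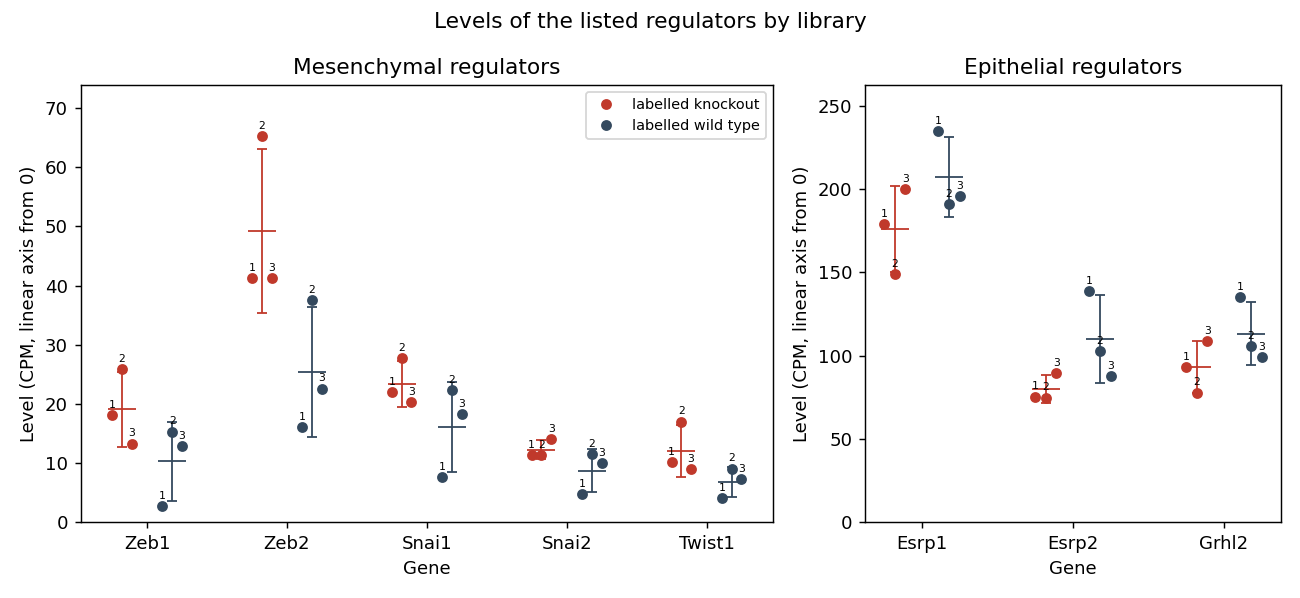
Level of each listed regulator in CPM (vertical axes, linear from 0) in the 3 libraries labelled knockout (red) and the 3 labelled wild type (dark blue); points are libraries with their replicate number, bars the mean and the SD. Library wild type 1 was the lowest point of every mesenchymal regulator and the highest of every epithelial regulator.

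Zeb1 (ENSMUSG00000024238.15, chromosome 18, 5591860 to 5775467, plus strand, GRCm38) had the widest spread of the 8. It stood at 18.1, 25.9 and 13.3 CPM in the libraries labelled knockout, against 2.67, 15.3 and 12.9 CPM in those labelled wild type. The groups overlapped, since wild type replicate 2 lay above knockout replicate 3, and the libraries labelled wild type differed 5.73-fold among themselves, against 1.94-fold for those labelled knockout. Wild type replicate 1 held 55 counts of Zeb1, against 274 and 333 in the other libraries of that label. On the log2 scale the difference was 0.89 (SE 0.62, edgeR adjusted p = 0.604), and it was 0.44 without wild type replicate 1.

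Zeb2 (ENSMUSG00000026872.17, chromosome 2, 44983632 to 45117395, minus strand, GRCm38) showed the only separation of the groups. It stood at 41.3, 65.3 and 41.2 CPM in the libraries labelled knockout, against 16.1, 37.5 and 22.6 CPM in those labelled wild type. All 3 libraries labelled knockout lay above all 3 labelled wild type, and knockout replicates 1 and 3 exceeded wild type replicate 2 by under 4 CPM. This was a log2 fold change of 0.95 (SE 0.35, 95% interval 0.09 to 1.82, edgeR adjusted p = 0.574). A two-sided exact permutation test returned p = 0.1, the smallest possible for 3 libraries against 3. Its exons overlap those of Zeb2os on the opposite strand and 2 other small genes over 3.3% of their bases, and how the counting treated strand is not stated.

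Both Zeb transcripts are known targets of the miR-200 family, epithelial microRNAs that Zeb1 and Zeb2 repress in turn. These microRNAs were not measured here. Their sequences are shown because the 2 Zeb transcripts held more of their match sites than the other regulators did. The 5 mature microRNAs, from RefSeq on GRCm38.p6, fall into 2 groups by their seed, bases 2 to 8, given in capitals.
mmu-miR-200b-3p: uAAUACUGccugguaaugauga
mmu-miR-200c-3p: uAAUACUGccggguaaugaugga
mmu-miR-429-3p: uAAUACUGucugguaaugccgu
mmu-miR-200a-3p: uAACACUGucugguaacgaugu
mmu-miR-141-3p: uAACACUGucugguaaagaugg

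Matches to the seeds were counted on the sense strand of the longest annotated 3′ untranslated region of each gene in GENCODE M21, as CAGTATT for the first 3 microRNAs and CAGTGTT for the other two. Zeb1 held 5 and 4 such matches in 2401 bases, and Zeb2 held 5 and 4 in 4941 bases. That is 3.75 and 1.82 matches per kilobase, against 0.274 over the 10518 listed genes with an annotated region, of which 33.4% held at least 1 match of either kind. Of these genes 3 held 9 or more, Zeb1, Zeb2 and D10Wsu102e, the last with 15 in an annotated region of 122583 bases. Snai2 held 2 matches, Snai1 and Grhl2 held 1 each, and Twist1, Twist2, Esrp1, Esrp2 and Ovol1 held 0. In their shorter regions of 1089 and 731 bases, Snai2 and Snai1 had 1.84 and 1.37 matches per kilobase. By density Zeb2 was thus not apart from Snai2. A match is a description of the sequence and not evidence of binding.

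**Figure D2:**
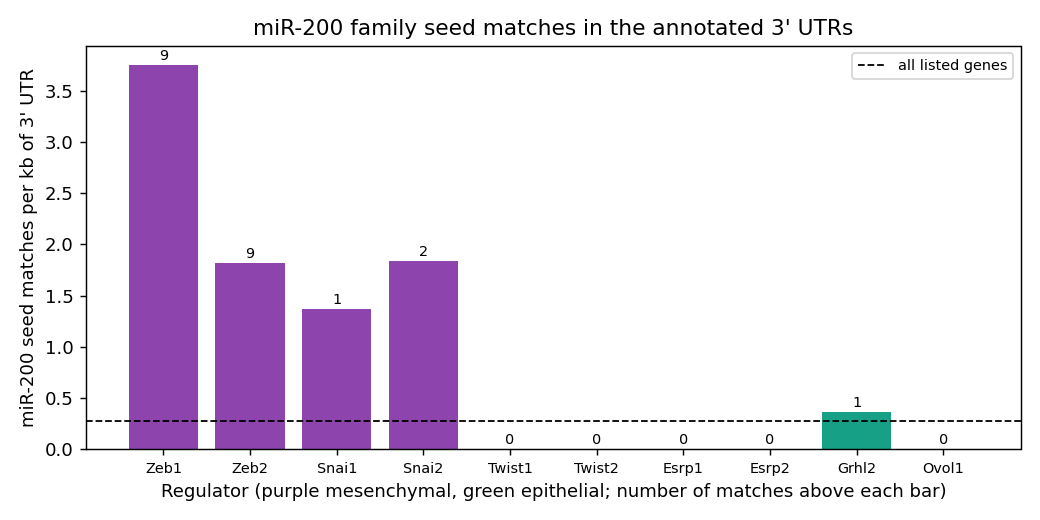
Matches to the miR-200 family seeds per kilobase of annotated 3′ untranslated region (vertical axis) for all 10 regulators, with the number of matches above each bar and the density over all listed genes as a dashed line. Zeb1 and Zeb2 held 9 matches each, and no other regulator held more than 2. Per kilobase, Snai2 (1.84) lay beside Zeb2 (1.82).

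A few of the sites in Zeb2 show how they are arranged, with the seed match in capitals and coordinates on GRCm38, minus strand. The first pair match miR-200b, miR-200c and miR-429, and the last matches miR-200a and miR-141.
Zeb2 at chr2:44988172-44988195: cgcactaccatacatCAGTATTtt
Zeb2 at chr2:44988107-44988130: cgcactacagtgcatCAGTATTac
Zeb2 at chr2:44987824-44987847: agtgccatccttgtaCAGTGTTca

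Snai1 and Snai2 encode the Snail and Slug proteins, and the groups overlapped for both. Snai1 (ENSMUSG00000042821.7, chromosome 2, 167538195 to 167542814, plus strand) stood at 22, 27.7 and 20.3 CPM in the libraries labelled knockout, against 7.61, 22.3 and 18.3 CPM in those labelled wild type. Wild type replicate 2 lay within the range of the libraries labelled knockout. The difference for Snai1 was 0.54 on the log2 scale (SE 0.39, edgeR adjusted p = 0.611), with 0.21 without wild type replicate 1 and 0.85 without wild type replicate 2. Snai2 (ENSMUSG00000022676.7, chromosome 16, 14705852 to 14709385, plus strand) stood at 11.3, 11.4 and 14.1 CPM with the knockout label, against 4.70, 11.5 and 10 CPM with the wild type label. Its libraries labelled knockout differed 1.25-fold among themselves, and wild type replicate 2 lay between them. For Snai2 the difference was 0.48 on the log2 scale (SE 0.34, edgeR adjusted p = 0.604), with 0.18 without wild type replicate 1 and 0.73 without wild type replicate 2.

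The region before the start of Snai1 is shown because it holds the E-box CAGGTG, the form that Zeb and Snail proteins bind. Promoter entries from RefSeq on GRCm38.p6 were matched for 4 of the 10 regulators, Zeb2, Snai1, Twist1 and Twist2. CAGGTG was searched on both strands of the 250 bases before each start, as CAGGTG or CACCTG, and the wider E-box CANNTG, which includes it, was searched too. Snai1 held 1 CAGGTG, written below in capitals as CACCTG, which begins 126 bases before the start, and this was also its single CANNTG. The 4 annotated starts of Zeb2 and the single starts of Twist1 and Twist2 held 0 of either. Over 32851 promoter entries, 17.2% held CAGGTG and 66.2% held CANNTG.
Snai1 at chr2:167537945-167538194, plus strand: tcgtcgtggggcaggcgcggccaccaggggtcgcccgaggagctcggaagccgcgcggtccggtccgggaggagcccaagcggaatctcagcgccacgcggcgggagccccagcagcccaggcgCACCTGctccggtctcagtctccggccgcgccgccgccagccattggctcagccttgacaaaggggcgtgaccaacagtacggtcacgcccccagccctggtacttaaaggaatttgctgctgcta

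Twist1 (ENSMUSG00000035799.6, chromosome 12, 33957671 to 33959829, plus strand) stood at 10.1, 17.0 and 8.98 CPM in the libraries labelled knockout, against 4.07, 9.08 and 7.25 CPM in those labelled wild type. The ranges met at wild type replicate 2 and knockout replicate 3, which differed by 0.1 CPM, and 8 of 9 pairs of libraries had the knockout label higher. Twist1 differed by 0.82 on the log2 scale (SE 0.38, 95% interval -0.10 to 1.75, edgeR adjusted p = 0.574), with 0.49 without knockout replicate 2.

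Esrp1 and Esrp2, the splicing regulators, both stood lower on average with the knockout label. Esrp1 (ENSMUSG00000040728.15, chromosome 4, 11331933 to 11386783, minus strand) stood at 179, 149 and 200 CPM in the libraries labelled knockout, against 235, 191 and 196 CPM in those labelled wild type. Knockout replicate 3 lay above wild type replicates 2 and 3, so the groups overlapped. Esrp1 had a log2 fold change of -0.23 (SE 0.14, 95% interval -0.57 to 0.10, edgeR adjusted p = 0.581), with -0.13 when knockout replicate 2 was left out and -0.14 when wild type replicate 1 was.

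Esrp2 (ENSMUSG00000084128.10, chromosome 8, 106130319 to 106136974, minus strand) stood at 75.5, 74.9 and 89.6 CPM with the knockout label, against 139, 103 and 87.6 CPM with the wild type label. The groups overlapped only through knockout replicate 3 and wild type replicate 3. Esrp2 had a log2 fold change of -0.46 (SE 0.18, edgeR adjusted p = 0.574), and it was -0.25 without wild type replicate 1. Its exons overlap Nfatc3 and 1810019D21Rik on the opposite strand over 7.79% of their bases, and 8.13% of the 31-base words of its longest transcript also occur in other genes. The other 7 listed regulators shared between 0% and 3.31% of such words.

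Grhl2 (ENSMUSG00000022286.16, chromosome 15, 37233036 to 37363569, plus strand) followed Esrp1 from library to library. It stood at 93.0, 77.9 and 109 CPM in the libraries labelled knockout, against 135, 106 and 99.0 CPM in those labelled wild type. Knockout replicate 3 lay within the range of the wild type label. Grhl2 had a log2 fold change of -0.28 (SE 0.17, 95% interval -0.69 to 0.13, edgeR adjusted p = 0.584), with -0.13 when wild type replicate 1 was left out and -0.16 when knockout replicate 2 was. The log2 ratio of Esrp1 to Grhl2 in CPM, read only for its movement, was 0.94, 0.94 and 0.88 with the knockout label, against 0.80, 0.85 and 0.99 with the wild type label. It stayed within 0.2 across the 6 libraries.

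**Figure D3:**
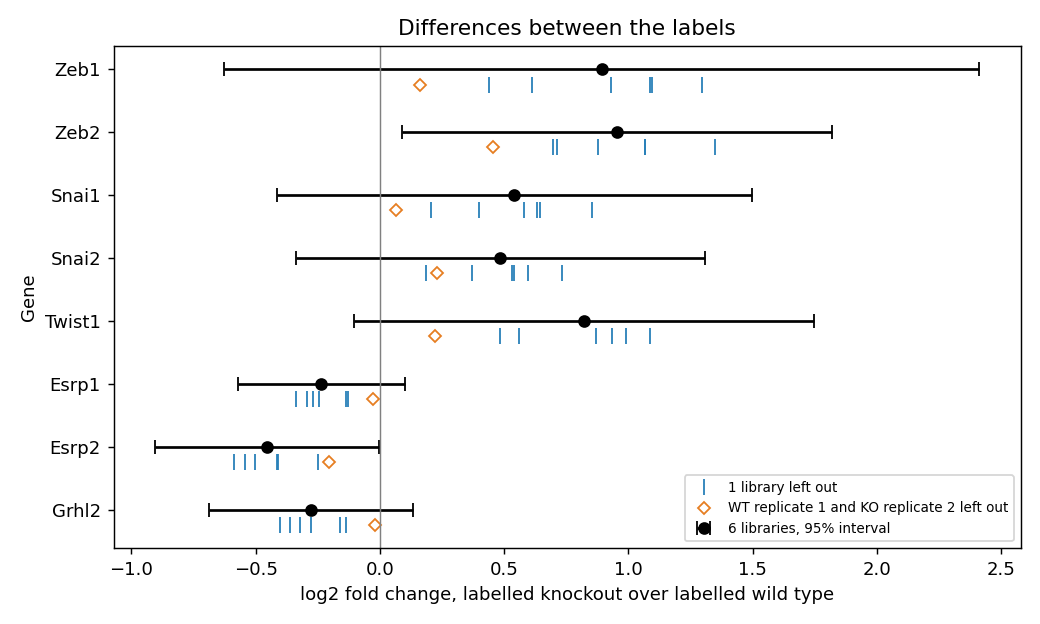
Log2 fold change (horizontal axis, labelled knockout over labelled wild type) of the 8 listed regulators, with black points and 95% intervals from 6 libraries, blue ticks for 1 library left out and orange diamonds with wild type replicate 1 and knockout replicate 2 both left out. All estimates kept their sign, and the diamonds lay between -0.20 and 0.46.

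Wild type replicate 1 and knockout replicate 2 were the libraries at the 2 ends of the first principal component. With both left out, an alternative added after seeing the data, the log2 fold change was 0.16 for Zeb1, 0.46 for Zeb2, 0.06 for Snai1, 0.23 for Snai2 and 0.22 for Twist1. It was -0.03 for Esrp1, -0.20 for Esrp2 and -0.02 for Grhl2. All 8 kept their direction there, with edgeR adjusted p of at least 0.961, and 0 of the 8 had an unadjusted p under 0.05. Leaving out wild type replicate 2 alone gave 1.30 for Zeb1 and 1.35 for Zeb2, the highest value for each with a single library left out.

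Per length of exon, the epithelial splicing regulators had the highest levels and the Zeb genes the lowest. Esrp1 averaged 27.9 RPKM ± 4.08 with the knockout label and 32.9 RPKM ± 3.83 with the wild type label (SD, n = 3 each), where RPKM is the CPM per kilobase of all annotated exons. Esrp2 averaged 18.4 RPKM ± 1.92 with the knockout label and 25.3 RPKM ± 6.06 with the wild type label, and lay below Esrp1 in 6 of 6 libraries. Snai1 averaged 14.4 RPKM ± 2.38 with the knockout label and 9.90 RPKM ± 4.68 with the wild type label. Grhl2 averaged 10.8 RPKM ± 1.82 with the knockout label and 13.1 RPKM ± 2.19 with the wild type label, and these neighbours did not differ beyond their spread, with Snai1 above Grhl2 in 3 of 6 libraries. Twist1, at 7.38 RPKM ± 2.68 with the knockout label and 4.18 RPKM ± 1.56 with the wild type label, likewise did not differ beyond its spread from Snai2, at 6.06 RPKM ± 0.787 with the knockout label and 4.33 RPKM ± 1.77 with the wild type label. Zeb2 came next, at 2.47 RPKM ± 0.697 with the knockout label and 1.27 RPKM ± 0.550 with the wild type label, below Snai2 in 6 of 6 libraries. Zeb1 averaged 1.86 RPKM ± 0.617 with the knockout label and 1 RPKM ± 0.653 with the wild type label, below Zeb2 in 5 of 6 libraries with overlapping ranges, so these neighbours did not separate. With the longest coding transcript as the length, Grhl2 came before Snai1 and the order of the other means was as given. Zeb2 then reached 7.16 RPKM in its highest library, above the 6.97 RPKM of the highest library of Snai2, so it no longer lay below Snai2 in every library. All annotated exons of Zeb2 cover 19942 bases, against 9124 in that transcript.

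Profiles over the 6 libraries were nearer within each side than across the sides. The likeness of 2 genes was taken as the root mean square difference of their centred log2 CPM over the 6 libraries, where 0 means the same profile. Esrp1 and Grhl2 differed by 0.06, Esrp2 and Grhl2 by 0.13, and Esrp1 and Esrp2 by 0.17. Among the mesenchymal regulators Zeb2 and Twist1 were nearest, at 0.17, and Zeb1 and Snai2 farthest apart, at 0.62. Every pair across the 2 sides differed by at least 0.64. Profiles with little spread give small differences, and the SD of log2 CPM was 0.22 for Esrp1 and 1.12 for Zeb1. The mean log2 CPM of the 5 mesenchymal regulators was 4.17, 4.63 and 4.09 with the knockout label, against 2.55, 4.08 and 3.72 with the wild type label. That of the 3 epithelial regulators was 6.75, 6.58 and 6.97 with the knockout label, against 7.36, 7 and 6.90 with the wild type label.

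By the same measure, genes outside the 10 were named that were most like each regulator. Nearest to Zeb1 were Has2, which makes hyaluronan, at 0.08 and the actin-binding calponin gene Cnn1 at 0.14. Nearest to Zeb2 were the membrane-bound protease Mmp17 and the secreted glycoprotein gene Fstl1, both at 0.09. Snai1 had Apobec1 (0.06), a cytidine deaminase that edits RNA, and Lbh (0.09), and Snai2 had Flrt3 (0.07) and Cnnm2 (0.10). Twist1 had Sipa1l2 (0.08) and the phosphatase gene Ubash3b (0.09). On the epithelial side, Esrp1 had the lipid kinase subunit Pik3cb and the O-glycosylation enzyme Galnt3, both at 0.04. Esrp2 had the adaptor gene Grb7 (0.04) and the actin nucleator Cobl (0.06), and Grhl2 had Fam213a and Tom1l1, at 0.04 and 0.05.

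Genes of the wider programme stood on the same sides, and the edgeR test called 0 of them in either direction. Of the mesenchymal and matrix genes 29 of 32 were listed, 25 above 0, with a median log2 fold change of 0.76. The edgeR test gave 3 of the 29 an unadjusted p under 0.05, all higher, where 3.7% of all genes stood so. In 2 of the 29 the groups did not overlap, again higher, where 8.39% of all genes stood so. DESeq2 called 0 of the 29. Postn, the matrix protein periostin, stood at 1630, 3130 and 2800 CPM with the knockout label, against 806, 1680 and 991 CPM with the wild type label (edgeR adjusted p = 0.574). The crosslinking enzyme gene Loxl2 stood at 149, 286 and 137 CPM with the knockout label, against 51.0, 124 and 96.2 CPM with the wild type label. The median of the list was 0.38 without knockout replicate 2, 0.48 without wild type replicate 1 and 0.12 without both.

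Of the epithelial junction and polarity genes, 33 of 34 were listed and all 33 lay below 0, with a median of -0.39. The edgeR test gave 18 of them an unadjusted p under 0.05, and in 16 the groups did not overlap, where 4.17% and 9.05% of all genes stood so. DESeq2 called 1 of the 33 lower, where it called 0.355% of all genes lower. The claudin gene Cldn3 stood at 188, 156 and 214 CPM with the knockout label, against 403, 279 and 263 CPM with the wild type label. The desmosomal cadherin gene Dsc2 stood at 24.8, 18.4 and 27.7 CPM with the knockout label, against 38.0, 35.4 and 33.0 CPM with the wild type label. The median of the list was -0.20 without wild type replicate 1 and knockout replicate 2. The part of the regulators, or of the share of epithelial cells, in these values was not tested.

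Other transcription factors of the 2 states were mixed on the mesenchymal side. There 11 of 18 were listed, 6 above 0 and 5 below, with a median of 0.15 that ranged from 0.05 to 0.24 with 1 library left out, lowest without wild type replicate 1 or knockout replicate 2. Prrx1, a homeobox gene of mesenchyme, stood at 57.8, 122 and 67.5 CPM with the knockout label, against 23.9, 63.3 and 31 CPM with the wild type label (edgeR adjusted p = 0.574). Sox4 lay the other way, at 515, 452 and 409 CPM with the knockout label, against 597, 515 and 543 CPM with the wild type label. Of the epithelial factors 10 of 14 were listed and 8 lay below 0, with a median of -0.34. It was -0.71 without knockout replicate 3, -0.13 without knockout replicate 2, -0.20 without wild type replicate 1 and -0.002 without the last 2 together. Elf3 was the 1 of 10 that was lower without overlap of the groups, where 9.05% of all genes stood so, at 12.0, 10.2 and 14.9 CPM with the knockout label, against 34.2, 20.1 and 16.4 CPM with the wild type label, a log2 fold change of -0.93 (SE 0.31, edgeR adjusted p = 0.574). Grhl1, a relative of Grhl2, stood at 4.97, 3.82 and 13.3 CPM with the knockout label, against 33.5, 11.1 and 8 CPM with the wild type label.

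Of the partners of the regulators, E proteins, Id proteins, corepressors and turnover factors, all 19 were listed, with a median of -0.08 and 13 below 0. In 6 of the 19 the knockout label was lower without overlap, where 9.05% of all genes stood so, and in 0 it was higher without overlap, where 8.39% did. The E protein gene Tcf3 stood at 107, 103 and 105 CPM with the knockout label, against 157, 115 and 118 CPM with the wild type label. The corepressor genes Rcor1 and Kdm1a had log2 fold changes of -0.17 and -0.18 (edgeR adjusted p = 0.574 for both). Of the 12 TGF-beta pathway genes, known inducers of the state change, 5 lay above 0 and 7 below. Smad3 stood at 117, 104 and 99.6 CPM with the knockout label, against 150, 120 and 143 CPM with the wild type label, and the receptor gene Tgfbr1 at 129, 164 and 107 CPM with the knockout label, against 69.5, 110 and 89.9 CPM with the wild type label.

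Other splicing factors known from the state change had 14 of 16 listed, 6 above 0, with a median of -0.008. Mbnl2 stood at 363, 416 and 361 CPM with the knockout label, against 310, 346 and 325 CPM with the wild type label (edgeR adjusted p = 0.574), the 1 of 14 that was higher without overlap, where 8.39% of all genes stood so. Of 12 genes with exons that Esrp proteins regulate, 6 lay above 0 and 6 below, with a median of 0.02. Enah, an actin regulator with an Esrp-dependent exon, stood at 238, 275 and 204 CPM with the knockout label, against 162, 194 and 179 CPM with the wild type label. Exoc7, of the exocyst, stood at 57.1, 54.5 and 53.2 CPM with the knockout label, against 126, 64.9 and 63.7 CPM with the wild type label. Counts per gene hold no information on which exons were used.

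Most markers of fibroblasts, pericytes and macrophages lay above 0, as the mesenchymal regulators did. The edgeR test called 0 of them, and DESeq2 called a few, as given below. The fibroblast and pericyte lists share genes with the mesenchymal and matrix list, among them Col1a1, Col3a1, Pdgfrb and Acta2. Fibroblast markers, 10 of 13 listed and all 10 above 0, had a median log2 fold change of 0.77. Leaving out wild type replicate 2 gave 1.18, leaving out knockout replicate 2 gave 0.44, leaving out wild type replicate 1 gave 0.48, and leaving out these last 2 together gave 0.21. Their summed level ranged from 4750 to 8450 CPM with the knockout label and from 2430 to 5940 CPM with the wild type label. The pericyte and smooth muscle markers, 8 of 10 listed, summed to between 917 and 2020 CPM with the knockout label, against 336 to 1120 CPM with the wild type label, with a median log2 fold change of 1.32 that was 0.70 without both of those libraries. Macrophage markers, 12 of 15 listed and 11 above 0, summed to between 1180 and 1350 CPM with the knockout label, against 828 to 975 CPM with the wild type label, with a median log2 fold change of 0.82 that was 0.51 without both. The groups did not overlap in 1 fibroblast, 5 pericyte and smooth muscle and 2 macrophage markers, all higher, where 8.39% of all genes stood so. DESeq2 called 1 fibroblast, 2 pericyte and smooth muscle and 0 macrophage markers higher, where it called 0.582% of all genes higher. The 2 pericyte and smooth muscle markers it called had few counts with the wild type label. They were listed only through libraries labelled knockout, so they could only stand higher. The defining fibroblast markers Lum, Fap and Dpt were not listed, and Col1a1 and Pdgfra were. The part of stromal cells in the values of the regulators was not tested.

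**Figure D4:**
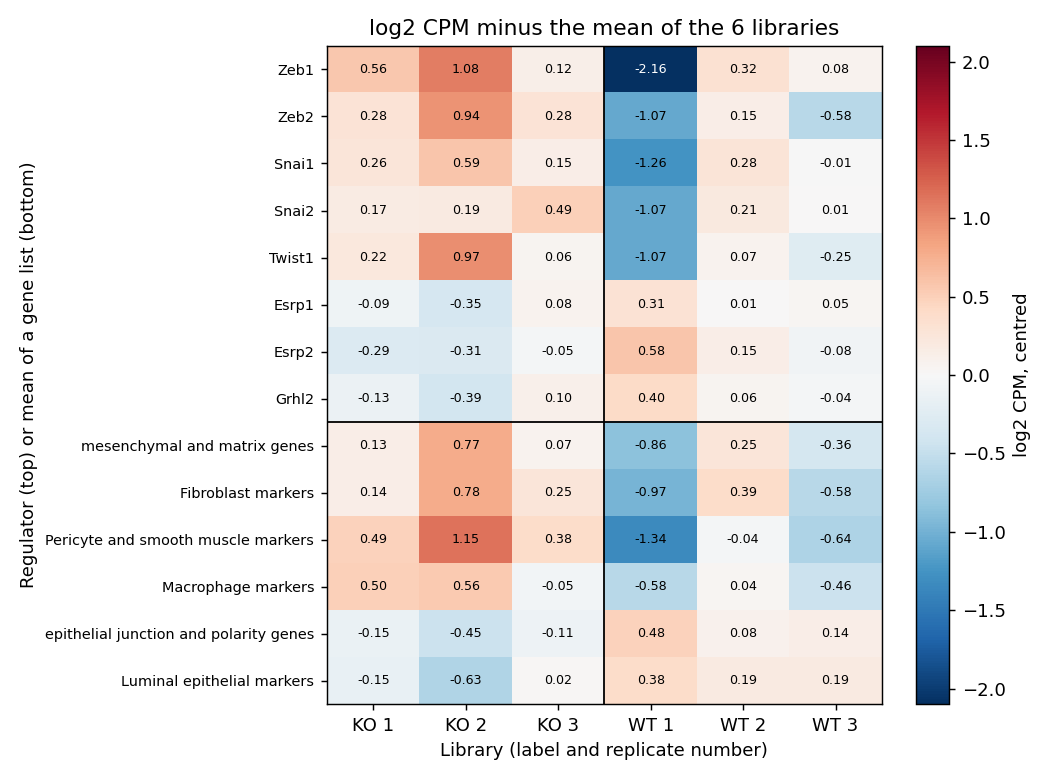
Centred log2 CPM, each value minus the mean of the 6 libraries, for the 8 listed regulators (upper rows) and the mean of 6 gene lists (lower rows), with libraries labelled knockout left of those labelled wild type. Wild type replicate 1 was the lowest in all 5 mesenchymal regulators and in the 4 mesenchymal and stromal lists, at -2.16 for Zeb1, and knockout replicate 2 was the highest in those 4 lists. Some of the lists share genes.

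Set against the mean log2 CPM of the fibroblast markers in the same library, Zeb2 lay at -1.87, -1.85 and -1.99 with the knockout label, against -2.11, -2.26 and -2.02 with the wild type label. The mean difference between the labels was then 0.23, and the groups still did not overlap. Set against the macrophage markers the difference for Zeb2 was 0.34 and the groups overlapped. The same difference against the fibroblast markers was 0.40 for Zeb1, 0.05 for Twist1, -0.11 for Snai1 and -0.20 for Snai2, and in each of these 4 the groups overlapped. For Zeb1, wild type replicate 1 was the lowest of all libraries, at -4.67, and wild type replicate 3 the highest, at -2.82. Set against the pericyte and smooth muscle markers, the difference was negative in all 5. It was -0.34 for Zeb2, -0.68 for Snai1, -0.77 for Snai2 and -0.51 for Twist1, with no overlap of the groups in these 4, and -0.17 for Zeb1, with overlap.

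Most luminal epithelial markers lay below 0, as the epithelial regulators did, and the edgeR test called 0 of them. Of 10 markers 9 were listed, Foxa1 being the other. They included Epcam, Krt8, Krt18 and Krt19, which stood in the junction and polarity list too. The 9 markers summed to between 2780 and 3720 CPM with the knockout label and to between 4400 and 4730 CPM with the wild type label. Of these, 8 of 9 lay below 0, with a median of -0.47. The median was -0.365 without knockout replicate 2, -0.53 without wild type replicate 1 and -0.44 without both. DESeq2 called 1 of the 9 lower, where it called 0.355% of all genes lower. Set against the mean log2 CPM of these markers, the difference between the labels was 0.27 for Esrp1, 0.08 for Esrp2 and 0.23 for Grhl2. For Esrp1 the groups then did not overlap, at -0.16, 0.06 and -0.17 with the knockout label, against -0.30, -0.41 and -0.36 with the wild type label. The part of the share of luminal cells in these values was not tested.

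Of the other marker lists, basal and myoepithelial genes were all listed, 8 of 8, and summed to between 2100 and 2510 CPM with the knockout label and to between 1120 and 2900 CPM with the wild type label. Of these, 5 lay above 0 and 3 below, with a median log2 fold change of 0.24. The list was mixed, with Cnn1 at 0.78 and Acta2 at 0.82 above 0, and the keratin gene Krt14 at -0.51 below. Acta2 stood in the pericyte and smooth muscle list and the mesenchymal and matrix list too. The edgeR test called 0 of the 8, and DESeq2 called 1 higher, where it called 0.582% of all genes higher. Set against the mean log2 CPM of this list, the difference between the labels was 0.71 for Zeb1, 0.54 for Zeb2 and 0.36 for Twist1. It was 0.197 for Snai1 and 0.105 for Snai2, and the groups overlapped for all of these regulators. The part of basal cells in these values was not tested. Endothelial markers had 1 of 9 listed, Eng, adipocyte markers 1 of 5, Fabp4, and Schwann cell markers 1 of 4, Sox10. Eng stood at 55.0, 99.9 and 31.6 CPM with the knockout label, against 12.2, 42.6 and 34.7 CPM with the wild type label, and Sox10 at 283, 230 and 335 CPM with the knockout label, against 367, 360 and 332 CPM with the wild type label. Fabp4 stood at 47.0, 78.1 and 26.6 CPM with the knockout label, against 2.71, 4.27 and 2.45 CPM with the wild type label. DESeq2 called it (DESeq2 adjusted p = 2.86e-16) and edgeR did not (edgeR adjusted p = 0.287). With so few counts under the wild type label, Fabp4 was listed only through libraries labelled knockout, so it could only stand higher. None of the 6 T cell or 4 B cell markers was listed.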

How the data were processed

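RNA was sequenced as 150-base paired reads from NEBNext libraries, per the labels' protocols. The authors deposited raw read counts per gene symbol, with no normalization, and the tools in the submitters' processing notes are HISAT2, featureCounts and CASAVA 1.8, with build GRCm38 (mm10). Strand setting, treatment of multiply aligned reads and annotation release are not stated. Of 10994 symbols, 10921 matched 1 gene of GENCODE M21, which gave coordinates, exon lengths and overlaps. Columns of other samples numbered 0, so none was left out.

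The main test was edgeR 4.0.16 (R 4.3.3), with filterByExpr (0 rows removed, so all 8 listed regulators passed), TMM scaling, the robust quasi-likelihood fit with the group as its only term, and Benjamini-Hochberg adjustment over all 10995 rows at 0.05. The SE is the absolute log2 fold change over the square root of F. DESeq2 1.42.0 and limma-voom (limma 3.58.1) were other tests. Log2 CPM used a prior count of 2. Python 3.11.15 counted sequence matches. The edgeR and DESeq2 fits were tested on simulated data, where the share of false calls was near the threshold in edgeR and well above it in DESeq2. No 2 libraries agreed within counting noise (smallest chi-square per degree of freedom 23.3).

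The regulators and gene lists were chosen with earlier results of these data known. Named were all regulators, Nr4a1, the 2 genes most like each listed regulator, leaving out gene models, and up to 4 genes of each list with the smallest unadjusted p, as well as genes that stood alone in a count. One gene that this rule would name is not reported here. Alternatives covered the test, scaling, filter, robust option, replicate block and each library left out.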

Additional observations from a re-analysis of the deposited data

How the results depend on the processing

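All 8 regulators kept their direction under all alternatives that were run, and none passed the threshold under any, the smallest adjusted p being 0.267, for Zeb2 in DESeq2. Leaving out 1 library at a time gave log2 fold changes of 0.44 to 1.30 for Zeb1, 0.70 to 1.35 for Zeb2, 0.21 to 0.85 for Snai1, 0.18 to 0.73 for Snai2 and 0.49 to 1.09 for Twist1. The ranges were -0.34 to -0.13 for Esrp1, -0.59 to -0.25 for Esrp2 and -0.40 to -0.13 for Grhl2. Over the whole table, DESeq2 called 64 genes higher and 39 lower, against 0 and 0 in edgeR and in limma-voom. With 1 library left out edgeR called 0 to 1 higher and 0 to 1 lower, and with wild type replicate 1 and knockout replicate 2 both left out it called 1 lower. At an unadjusted p under 0.05, edgeR gave 866 genes, with 388 without knockout replicate 2, 513 without knockout replicate 1, 1365 without wild type replicate 2 and 511 with both libraries left out. Of the regulators, 2 had such a p with all libraries, and 0 when either wild type replicate 1 or knockout replicate 2 was left out. The filter of 10 CPM in at least 3 libraries removed 1052 genes, Twist1 among them. With the replicate block the log2 fold changes were 1.12 for Zeb1, 1 for Zeb2 and -0.43 for Esrp2, and 0 genes were called. Same-numbered libraries had correlations of -0.11, 0.35 and -0.26 between their deviations. These were mixed in sign, so whether the numbers pair the samples could not be settled. Scaling by library size alone left 16 of the 16 genes most like a regulator. With 3 libraries a group, the wide intervals limit what can be told.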
